A study of Mus musculus with 13 samples.

Results

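The 10 genes described here, Tslp, Il33, Il1rl1, Ccl17, Ccl22, Ccr4, Ccr8, Il4ra, Il13ra1 and Gata3, belong to type 2 immunity. They were picked by gene symbol for their role in this pathway, with earlier results of these data known, and all 10 were found among the 55357 genes of the count table. RNA of mouse tail tissue with lymphedema, a swelling left by failed lymphatic drainage, was sequenced in 6 TNTProx1 and 7 TNTSham samples. All 13 samples are listed with an age of 12 weeks and were taken at day 28 after TNT, a name in use for tissue nanotransfection that the labels do not spell out. The group name TNTProx1 refers to Prox1, the transcription factor of lymphatic endothelial identity. The labels give no strain, sex, construct or promoter and do not say whether each sample was a separate animal, so p-values measure the spread between these samples.

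Type 2 immunity starts at barriers such as skin. Stressed epithelial and stromal cells release the alarmins TSLP and IL-33, which act on dendritic cells, type 2 innate lymphoid cells, mast cells and T helper cells. Dendritic cells and macrophages then make the chemokines CCL17 and CCL22, which draw cells that carry CCR4, among them T helper 2 (Th2) cells, regulatory T cells and skin-homing memory T cells. Th2 cells depend on the transcription factor GATA3 and release IL-4 and IL-13, which signal through IL4RA and IL13RA1 to the factor STAT6. In lymphedema of mice and humans, Th2 cells and their cytokines have been tied to fibrosis of the swollen tissue. The comparison of TNTProx1 with TNTSham gives RNA levels of these genes, and their link to fibrosis was not tested.

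The start regions of 3 members are shown because Ccl17 and Ccl22 are neighbouring chemokine genes that both had lower means in TNTProx1, and Il33 was the most abundant ligand per kilobase. Ccl17 and Ccl22 start 64.8 kb apart on mouse chromosome 8, with Cx3cl1 among the genes between them. A RefSeq entry (build GRCm38.p6) was found for 9 of the 10 genes and not for Tslp. These 9 genes had 11 start windows, each of 250 bases before and 50 after a start, and Il33 and Il1rl1 had more than one. The count table sums all starts of a gene.
Ccl17, chr8:94810203-94810502, plus strand: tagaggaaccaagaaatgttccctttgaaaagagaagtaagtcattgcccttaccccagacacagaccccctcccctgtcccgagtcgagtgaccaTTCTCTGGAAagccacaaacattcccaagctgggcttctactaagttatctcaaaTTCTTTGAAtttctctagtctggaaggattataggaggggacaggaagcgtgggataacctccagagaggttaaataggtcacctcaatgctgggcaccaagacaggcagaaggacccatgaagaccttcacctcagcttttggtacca
Ccl22, chr8:94745434-94745733, plus strand: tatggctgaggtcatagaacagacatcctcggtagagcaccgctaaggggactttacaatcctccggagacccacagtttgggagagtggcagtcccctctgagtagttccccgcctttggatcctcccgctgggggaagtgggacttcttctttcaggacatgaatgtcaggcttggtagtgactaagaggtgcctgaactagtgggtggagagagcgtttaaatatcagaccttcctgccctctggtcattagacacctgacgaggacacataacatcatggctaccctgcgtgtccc
Il33, chr19:29924863-29925162, plus strand: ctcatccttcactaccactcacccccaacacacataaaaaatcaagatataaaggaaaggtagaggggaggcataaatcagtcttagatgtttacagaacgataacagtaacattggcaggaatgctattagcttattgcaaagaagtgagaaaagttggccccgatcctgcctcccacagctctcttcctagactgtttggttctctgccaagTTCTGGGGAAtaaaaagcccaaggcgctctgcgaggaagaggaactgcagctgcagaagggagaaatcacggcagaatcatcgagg

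Capitals mark the STAT6-type motif TTCNNNNGAA and the general STAT motif TTCNNNGAA, in which N is any base. Both patterns read the same on the other strand and do not overlap each other here. The Ccl17 window held TTCNNNNGAA 154 bases and TTCNNNGAA 99 bases before the start. The Il33 window shown held TTCNNNNGAA 36 bases before the start. The Ccl22 window and the other windows of the members held neither. Of all 32851 windows, 6.95% held TTCNNNNGAA and 8.30% held TTCNNNGAA. A match describes letters and is not evidence of a bound factor.

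Libraries held 40.4M ± 5.08M counts in TNTProx1 (SD, n = 6) and 36.6M ± 6.32M in TNTSham (SD, n = 7; M stands for 1000000). Levels are given as CPM, counts scaled to 1000000 per library with TMM factors. TNTProx1 4, 5 and 6 lay apart from the other 10 libraries on the first principal component, at 35.7 to 117 against -30.8 to -7.61. TNTProx1 4 lay furthest out, at 117. In TNTProx1 4, 5 and 6 the level of Malat1, a nuclear noncoding RNA, was 3410 to 3539 CPM, against 8979 to 16814 CPM in the other 10. The value without these 3 libraries is therefore given beside that of all 13 for every member, and for a number of other genes and lists. TNTSham 1 was also unlike the others in that Xist, the RNA of the inactive X chromosome, stood at 2095 CPM, against at most 2.01 CPM in the other 12. Keratinocyte, fibroblast and blood endothelial markers were present in every library, as whole tail tissue would have. The summed level of 8 keratinocyte markers was 5790 to 55897 CPM in TNTProx1 and 26459 to 41049.9 CPM in TNTSham, lowest in TNTProx1 2. In whole tissue, fewer cells of a type and less RNA per cell cannot be told apart.

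Ccl22 and Ccr4 had the smallest p-values among the members. Ccl22 averaged 11.5 ± 2.36 CPM in TNTProx1 (SD, n = 6) and 19.2 ± 7.0 CPM in TNTSham (SD, n = 7). Its receptor Ccr4 averaged 1.31 ± 0.734 CPM in TNTProx1 and 2.78 ± 1.32 CPM in TNTSham. Neither passed the edgeR quasi-likelihood test after Benjamini-Hochberg adjustment over all genes (adjusted p = 0.179 for Ccl22 and 0.251 for Ccr4). The alarmins, the IL-33 receptor and the IL-4 and IL-13 receptor chains overlapped widely between the groups.

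No member was among the called genes, because the edgeR test called none of the 22876 genes tested (0% higher and 0% lower). At an unadjusted p under 0.05 it gave 2802 genes, or 12.2%, of which 3.92% of all genes were lower and 8.33% higher in TNTProx1. Of the 10 members, all of which passed the low-count filter, 2 reached that level, Ccl22 and Ccr4, both lower. DESeq2 called 619 genes, or 2.71%, with 0.73% of all genes lower and 1.98% higher, and limma voom with quality weights called 573. Ccl22 was the 1 member that DESeq2 called (adjusted p = 0.0352), and limma voom called none. Of the members 6 were lower and 4 higher. Their median log2 fold change was -0.32, and that of all tested genes was -0.02. In none of the members did all 6 TNTProx1 libraries lie below the 7 TNTSham libraries, as 0.214% of the tested genes did.

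**Figure D1:**
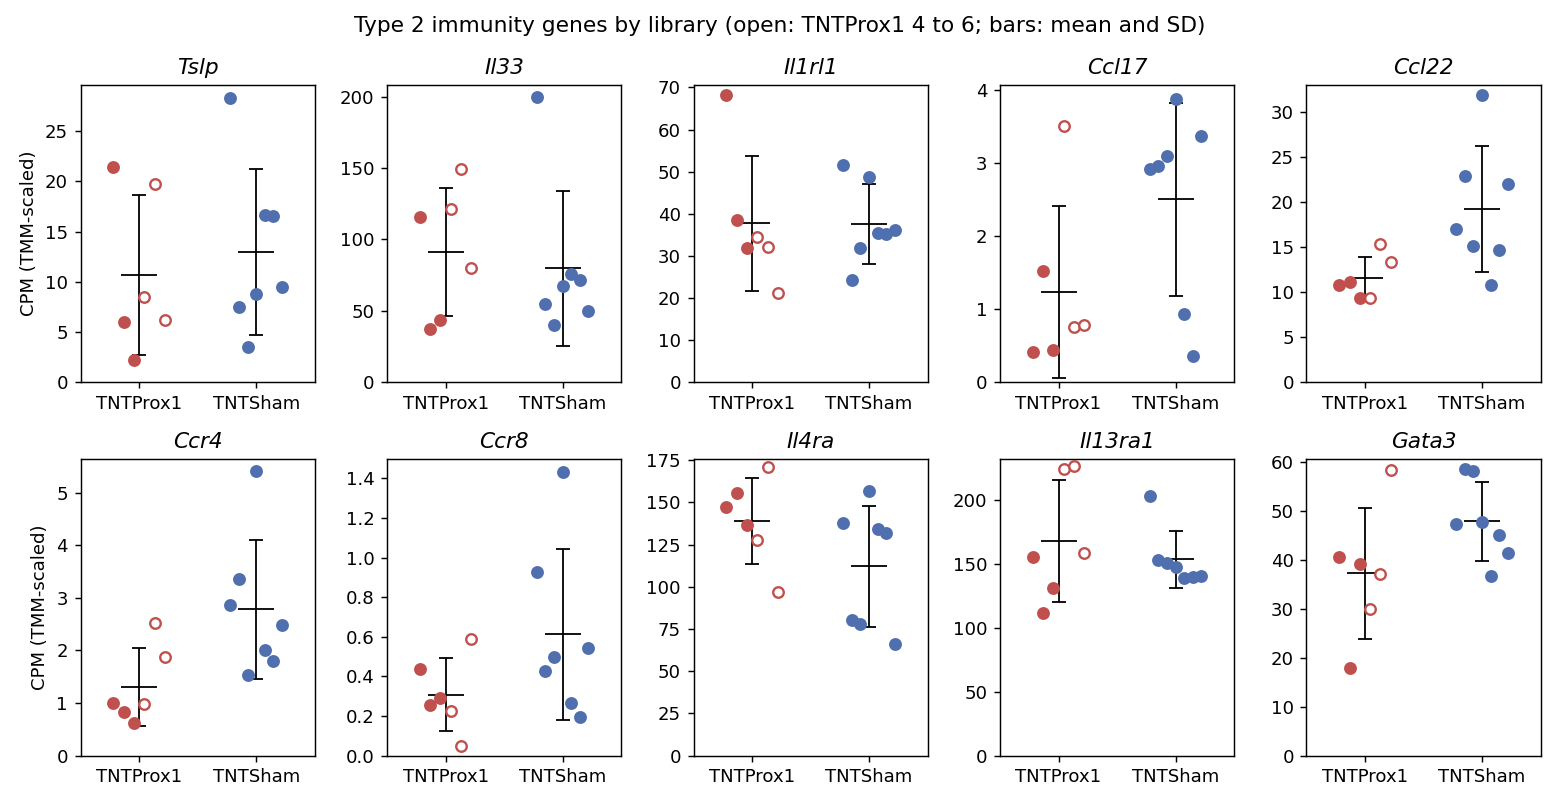
Level of each gene in every library in TMM-scaled CPM (vertical axes start at 0), with TNTProx1 on the left and TNTSham on the right of each panel. Points are libraries, open points are TNTProx1 4 to 6, and bars give the mean and SD (n = 6 and 7). Ccl22 and Ccr4 lie lower in most TNTProx1 libraries, and the other panels overlap over most of their range.

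Tslp (ENSMUSG00000024379.5) encodes thymic stromal lymphopoietin, an epithelial cytokine that primes dendritic cells for Th2 responses. The level ran from 2.20 to 21.5 CPM with a median of 7.31 in TNTProx1, and from 3.52 to 28.3 CPM with a median of 9.45 in TNTSham. The highest TNTProx1 libraries were TNTProx1 1 and 5, at 21.5 and 19.8 CPM, and the highest TNTSham library was TNTSham 1. The groups overlapped almost completely. Tslp thus had a log2 fold change of -0.28 ± 0.51 (SE), with a 95% interval of -1.36 to 0.81 and an edgeR adjusted p of 0.849. Without TNTSham 1 it was 0.04, so the direction rests on that library, and without TNTProx1 4 to 6 it was -0.39 ± 0.65 (SE).

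Il33 (ENSMUSG00000024810.17) encodes an interleukin-1 family alarmin that is stored in nuclei of epithelial, endothelial and stromal cells. Its level ran from 37.1 to 149 CPM with a median of 97.8 in TNTProx1, and from 40.2 to 199.6 CPM with a median of 67.2 in TNTSham. TNTSham 1 held the 199.6 CPM, and the other 6 TNTSham libraries reached at most 75.3 CPM. Within TNTProx1 the libraries 4, 5 and 6 had 121, 149 and 79.7 CPM, while 1, 2 and 3 had 116, 37.1 and 43.7 CPM. For Il33 the log2 fold change came to 0.19 ± 0.39 (SE; 95% interval -0.64 to 1.02), with an edgeR adjusted p of 0.866. Without TNTProx1 4 to 6 it was -0.28 ± 0.48 (SE), and without TNTSham 1 it was 0.61.

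The receptor of IL-33, ST2, is encoded by Il1rl1 (ENSMUSG00000026069.16), which gives rise to a membrane form and a soluble decoy form that gene-level counts do not separate. Il1rl1 ran from 21.2 to 68.3 CPM with a median of 33.2 in TNTProx1, and from 24.3 to 51.6 CPM with a median of 35.4 in TNTSham. TNTProx1 1 stood above every other library, and the remaining 12 overlapped. The means were 37.7 ± 16.0 CPM in TNTProx1 and 37.6 ± 9.51 CPM in TNTSham, a log2 fold change of 0.0046 ± 0.23 (SE) with a 95% interval of -0.49 to 0.50. Changes of up to about that size in either direction were not resolved. Without TNTProx1 1 the log2 fold change was -0.25, and without TNTProx1 4 to 6 it was 0.30.

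TNTSham 1 was the highest library for both alarmins, and TNTProx1 1 and 5 were high in both. TNTProx1 4 was high in Il33, at 121 CPM, and not in Tslp, at 8.45 CPM. Among 18126 genes with a mean log2 CPM above 0, the gene whose centred profile over 13 libraries lay nearest to that of Tslp was Il33, at a root-mean-square difference of 0.65 log2 units, followed by Tmprss11b and Klk14 at 0.66 each. The median over all these genes was 1.08, and a flat profile would lie at 1.02, the spread of Tslp about its own mean. Tmprss11b and Klk14 encode epithelial serine proteases. Among the genes nearest to Il33 were Pmaip1, which encodes a pro-apoptotic protein, at 0.26, and Aknad1 at 0.34, against a median of 0.79 and 0.73 for a flat profile.

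Ccl22 (ENSMUSG00000031779.4) encodes a chemokine of dendritic cells and macrophages. It stood at 10.8, 11.1, 9.37, 9.32, 15.3 and 13.3 CPM in TNTProx1 1 to 6. In TNTSham 1 to 7 it stood at 17.03, 22.9, 15.0, 31.9, 10.8, 14.7 and 21.9 CPM. All 6 TNTProx1 libraries lay below the TNTSham median and 2 of them below the TNTSham range. TNTSham 3, 5 and 6, in turn, lay within the range of TNTProx1. Ccl22 had a log2 fold change of -0.73 ± 0.22 (SE), with a 95% interval of -1.20 to -0.26. Exact permutation of the group labels (1716 splits, two-sided, on log2 of CPM plus 0.5) gave an unadjusted p of 0.0169. Leaving out any single library kept the value between -0.83 and -0.56, and without TNTProx1 4 to 6 it was -0.88 ± 0.28 (SE; edgeR adjusted p = 0.103).

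Ccl17 (ENSMUSG00000031780.3), the other ligand of CCR4 and a product of skin dendritic cells, was counted 11 to 156 times per library. In TNTProx1 1 to 6 it stood at 0.414, 1.52, 0.439, 3.51, 0.750 and 0.776 CPM. TNTSham 1 to 7 had 2.92, 2.96, 3.10, 3.88, 0.927, 0.360 and 3.37 CPM. Levels thus fell near 3 CPM or more in 5 TNTSham libraries and 1 TNTProx1 library, and at 1.52 CPM or less in the rest. The lowest count, 11 in TNTSham 6, has a 95% Poisson interval of 5.49 to 19.7, and the highest, 156 in TNTProx1 4, one of 132 to 182, so counting error does not bridge them. Its log2 fold change of -1.01 ± 0.58 (SE) had a 95% interval of -2.24 to 0.22 and an edgeR adjusted p of 0.511. Leaving out TNTProx1 4 gave -1.68 (edgeR adjusted p = 0.213), and leaving out TNTProx1 4 to 6 gave -1.66 ± 0.66 (SE; edgeR adjusted p = 0.174). Cx3cl1, the chemokine gene between Ccl22 and Ccl17 on the chromosome, averaged 14.6 ± 2.69 CPM in TNTProx1 and 13.6 ± 1.63 CPM in TNTSham, a log2 fold change of 0.10 ± 0.13 (SE).

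**Figure D2:**
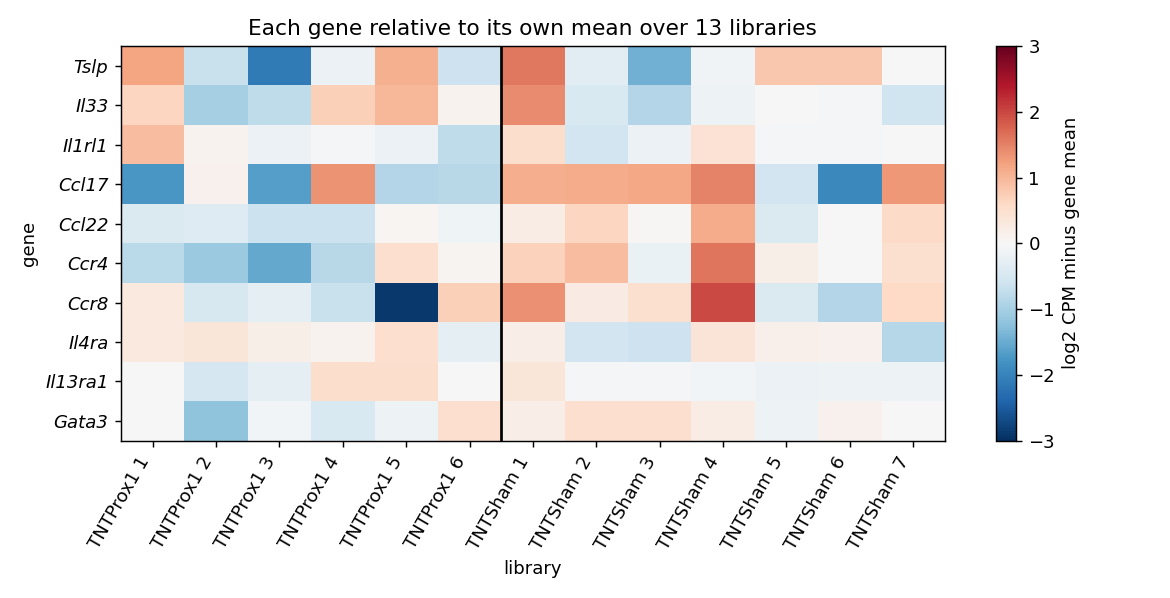
Colour gives log2 CPM of each gene (rows) minus its own mean over the 13 libraries (columns, TNTProx1 left of the line, TNTSham right). TNTSham 4 is high in Ccl17, Ccl22, Ccr4 and Ccr8 together, and TNTSham 1 is high in Tslp and Il33.

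Ccr4 (ENSMUSG00000047898.8) encodes the receptor of both ligands. It stood at 1.01, 0.823, 0.615, 0.991, 2.52 and 1.88 CPM in TNTProx1 1 to 6, and at 2.86, 3.37, 1.54, 5.40, 2.01, 1.80 and 2.48 CPM in TNTSham 1 to 7. The libraries TNTProx1 1 to 4 lay below the TNTSham range, and TNTProx1 5 and 6 lay inside it. In Ccr4 the log2 fold change was -1.09 ± 0.38 (SE), with a 95% interval of -1.89 to -0.28, and the exact permutation p was 0.0157, unadjusted. These levels rest on 21 to 185 counts per library.

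Without TNTProx1 4 to 6 the difference in Ccr4 was -1.76 ± 0.40 (SE; edgeR adjusted p = 0.0694), over 1.5 times the value with all libraries. In that set of 10 libraries, TNTProx1 1 to 3 lay wholly below the 7 TNTSham libraries for Ccr4, as they did for 5.61% of the genes tested there. In the same set 4 members had an unadjusted p under 0.05, Ccl17, Ccl22, Ccr4 and Gata3, all lower, beside 12.1% of all genes lower, 9.34% higher and 21.4% in either direction at that level, and none passed after adjustment (0% of genes).

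The receptor of CCL1 and, in mice, CCL8 is encoded by Ccr8 (ENSMUSG00000042262.6), which marks regulatory T cells and Th2 cells in skin. It was the least counted member, with 2 to 49 counts per library. TNTProx1 had 0.0484 to 0.588 CPM with a median of 0.275, and TNTSham had 0.196 to 1.43 CPM with a median of 0.50. The 2 counts of TNTProx1 5 have a 95% Poisson interval of 0.242 to 7.22, and the 49 counts of TNTSham 4 one of 36.3 to 64.8. Ccr8 had a log2 fold change of -0.98 ± 0.55 (SE) with a 95% interval of -2.15 to 0.19 and an edgeR adjusted p of 0.502. It was -0.62 without TNTSham 4, the library highest in Ccl17, Ccl22, Ccr4 and Ccr8 alike, and -0.88 ± 0.57 (SE) without TNTProx1 4 to 6.

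Cell markers were set beside the chemokines and their receptors, and their part in those values was not tested. Of 8 T cell markers 6 were lower and their median log2 value was -0.26 (-0.52 without TNTProx1 4 to 6), with Cd3g, a T cell receptor subunit, at -0.89 ± 0.31 (SE) and Thy1, which fibroblasts and neurons also express, at 0.47 ± 0.12 (0.31 without TNTProx1 4 to 6). The summed level of the list was 119 to 152 CPM in TNTProx1 and 95.5 to 144 CPM in TNTSham, of which Thy1 averaged 109 CPM in TNTProx1 and 78.5 CPM in TNTSham. All 5 regulatory T cell markers were lower, at a median of -0.34, with a summed level of 29.1 to 41.5 CPM in TNTProx1 and 32.0 to 58.7 CPM in TNTSham, highest in TNTSham 4. Foxp3, their defining factor, averaged 2.92 ± 1.04 CPM in TNTProx1 and 3.63 ± 1.33 CPM in TNTSham. Of 8 dendritic cell markers 5 were lower, at a median of -0.01 (-0.16 without TNTProx1 4 to 6), with a summed level of 89.0 to 157 CPM in TNTProx1 and 98.5 to 214 CPM in TNTSham. For Langerhans cells, the dendritic cells of the epidermis, 2 of 4 markers were lower, at a median of -0.07 (-0.23 without TNTProx1 4 to 6), and the sum was 95.9 to 196 CPM in TNTProx1 and 119 to 157 CPM in TNTSham. Of that sum Mfge8 averaged 129 CPM in TNTProx1 and 93.8 CPM in TNTSham, with a log2 fold change of 0.46 ± 0.17 (SE). Cd207 averaged only 0.909 CPM in TNTProx1 and 1.65 CPM in TNTSham, on 1 to 128 counts per library, with -0.86 ± 0.64 (SE). No marker of these 4 lists was at 0 throughout. Macrophage markers went the other way, with 7 of 8 higher at a median of 0.34. Their sums were 979 to 1405 CPM in TNTProx1 and 861 to 1493 CPM in TNTSham. TNTSham 1 held the 1493 CPM, and the other TNTSham libraries had 861 to 955 CPM, below every TNTProx1 library. That library also had the highest TNTSham sums for dendritic and T cells, 214 and 144 CPM, against at most 158 and 133 CPM otherwise. Its sum of 8 mast cell markers was 443 CPM, against at most 212 CPM in the other TNTSham libraries. Of those 8 markers 4 were lower, at a median of 0.02 (-0.24 without TNTProx1 4 to 6). None of these markers passed the edgeR test over all genes.

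Il4ra (ENSMUSG00000030748.10) encodes the chain that IL-4 and IL-13 receptors share. Its level was 97.0 to 171 CPM with a median of 142 in TNTProx1, and 66.4 to 157 CPM with a median of 132 in TNTSham. Within TNTSham the libraries 2, 3 and 7 had 80.3, 77.8 and 66.4 CPM, below every TNTProx1 library, and the other 4 had 132 CPM or more. At 0.31 ± 0.20 (SE; 95% interval -0.12 to 0.74), its log2 fold change was the highest among the members, with an edgeR adjusted p of 0.578. Without TNTProx1 4 to 6 it was 0.38 ± 0.24 (SE).

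Il13ra1 (ENSMUSG00000017057.10), on the X chromosome, encodes the chain that binds IL-13 and pairs with IL4RA. Levels of 111 to 226 CPM with a median of 157 in TNTProx1 faced 139 to 203 CPM with a median of 147 in TNTSham. TNTProx1 4 and 5 had 224 and 226 CPM, above every TNTSham library, and TNTProx1 2 and 3 had 111 and 131 CPM, below every TNTSham library. TNTSham 1, the library with the high Xist level, held the 203 CPM, and the other 6 TNTSham libraries had 139 to 153 CPM. At 0.13 ± 0.16 (SE) the log2 fold change of Il13ra1 had an edgeR adjusted p of 0.777. It was -0.21 ± 0.14 without TNTProx1 4 to 6, so its sign follows those 3 libraries. Single libraries moved it too, to 0.03 without TNTProx1 4 or 5, 0.22 without TNTProx1 2 and 0.21 without TNTSham 1.

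Gata3 (ENSMUSG00000015619.11) encodes the master transcription factor of Th2 cells and innate lymphoid cells, and is also expressed in keratinocytes and in the inner root sheath of hair follicles. Its level was 17.9 to 58.4 CPM with a median of 38.2 in TNTProx1, and 36.8 to 58.6 CPM with a median of 47.4 in TNTSham. TNTProx1 2 held the 17.9 CPM and TNTProx1 4 had 29.9 CPM, both below the TNTSham range, and TNTProx1 6 stood near its top. For Gata3 the log2 fold change came to -0.36 ± 0.21 (SE; 95% interval -0.80 to 0.08), with an edgeR adjusted p of 0.510. Without TNTProx1 2 it was -0.22, and without TNTProx1 4 to 6 it was -0.56 ± 0.23 (SE).

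TNTProx1 2 and TNTProx1 6, the lowest and the highest TNTProx1 library for Gata3, also had the lowest and the highest summed level of keratinocyte markers among all 13, at 5790 and 55897 CPM. Within TNTSham this did not hold. TNTSham 5 had the highest keratinocyte sum of that group, 41049.9 CPM, and its lowest Gata3 level, 36.8 CPM. Of 8 keratinocyte markers 7 were lower, and their median was -0.33 on the log2 scale. Without TNTProx1 4 to 6 all 8 were lower, at a median of -0.81. Of 6 inner root sheath markers 5 were lower, at a median of -0.20 (6 of 6 and -0.56 without TNTProx1 4 to 6), and their sum was 246 to 986 CPM in TNTProx1 and 300 to 1349 CPM in TNTSham. None of either list was at 0 throughout. Their part in the Gata3 level was not tested. The genes nearest to Gata3 over the 13 libraries were Inka2, Baiap2l1 and Ankrd35, at root-mean-square differences of 0.18, 0.19 and 0.19 log2 units, against a median of 0.54 over all 18126 genes. For Ccl17 they were Defb6, a beta-defensin gene, Gpr174, a lymphocyte receptor gene, and Grap2, an adaptor gene of T cells, at 0.71, 0.71 and 0.72, against a median of 1.25. A flat profile would lie at 0.44 from Gata3 and at 1.20 from Ccl17.

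Levels were ordered across members per kilobase of exon. The mean over 13 libraries was 43.1 CPM per kilobase for Il13ra1, 29.5 for Il33, 20.8 for Il4ra and 10.8 for Gata3. It was 8.95 for Tslp, 6.73 for Ccl22, 5.46 for Il1rl1 and 3.73 for Ccl17. The T cell chemokine receptors came last, at 0.679 CPM per kilobase for Ccr4 and 0.402 for Ccr8. Each member overlapped its neighbour in this order over the range of the libraries. Spread within a group was smallest for Il13ra1 in TNTSham, a coefficient of variation of 14.7%, and largest for Ccl17 in TNTProx1, 96.0%. Ccl22 varied by 20.4% in TNTProx1 and 36.5% in TNTSham, and Ccr8 by 60.2% in TNTProx1 and 70.4% in TNTSham.

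**Figure D3:**
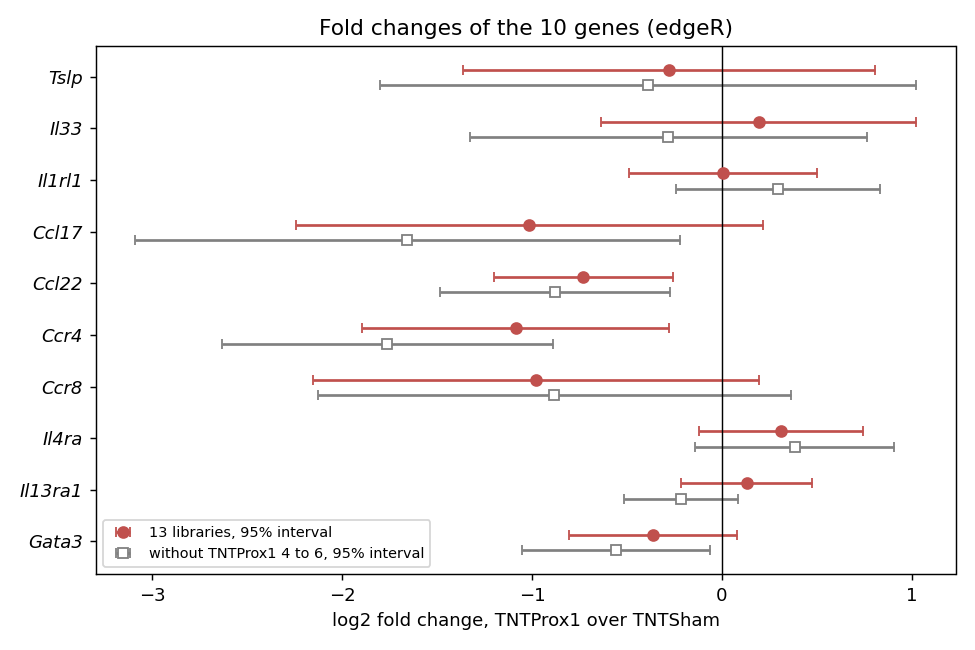
Horizontal position gives the edgeR log2 fold change, TNTProx1 over TNTSham, with its 95% interval, for all 13 libraries (filled) and without TNTProx1 4 to 6 (open). With 13 libraries the intervals of Ccl22 and Ccr4 lie below 0 before adjustment for multiple tests, and Il33 and Il13ra1 change sign between the fits.

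The cytokines at the centre of the pathway were at or near the limit of counting. Il4 had 0 to 12 counts per library in TNTProx1 and 4 to 19 in TNTSham, Il5 had 0 to 5 in TNTProx1 and 0 to 11 in TNTSham, and Il13 had 0 to 17 in TNTProx1 and 0 to 12 in TNTSham. Il25, a further epithelial alarmin, had at most 6 counts in any library. Il9 and Il31 had none in all 13, which allows up to 3 counts per library, or 0.0625 to 0.101 CPM depending on the library's total. These 6 genes did not pass the low-count filter over 13 libraries. Il4 averaged 0.122 ± 0.115 CPM in TNTProx1 and 0.328 ± 0.164 CPM in TNTSham, and it did pass the filter without TNTProx1 4 to 6, where its log2 fold change was -1.01 (edgeR adjusted p = 0.351). Eosinophils are recruited by IL-5, and the summed level of 5 eosinophil markers was 4.74 to 6.07 CPM in TNTProx1 and 4.55 to 14.9 CPM in TNTSham. TNTSham 1 held the 14.9 CPM, and the other TNTSham libraries had 4.55 to 5.91 CPM. Of the 3 eosinophil markers tested, Siglecf had a log2 fold change of -1.19 ± 0.52 (SE), Il5ra one of -0.80 ± 0.64 and Ccr3 one of 0.13 ± 0.26. The granule genes Epx and Prg2 were too low to test, with at most 5 and 18 counts in any library.

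Of 53 further genes of type 2 immunity in 5 lists, 46 were tested and none passed the edgeR test over all genes. An unadjusted p under 0.05 was reached by 6 higher and 4 lower ones, beside 8.33% and 3.92% of all genes, and the median log2 fold change of the 46 was -0.0027. DESeq2 called 2 of them, Tgm2 higher and Cish lower, beside 2.71% of all genes (1.98% higher and 0.73% lower). The 2 tested cytokine genes were Tnfsf4, the ligand of OX40, with a log2 fold change of 1.15 ± 0.46 (SE), and Areg, the tissue-repair growth factor amphiregulin, with 0.40 ± 0.58. Without TNTProx1 4 to 6 Areg had -0.49.

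Receptor chains were lower in 8 of 10 tested genes, at a median of -0.26. Crlf2, the specific chain of the TSLP receptor, was 1 of the 2 higher ones. It averaged 6.85 ± 3.59 CPM in TNTProx1 and 3.05 ± 1.35 CPM in TNTSham, and 1.17 ± 0.37 (SE) was its log2 fold change, with an edgeR adjusted p of 0.202. Without TNTProx1 4 to 6 its value was 0.30. Il31ra, the receptor of the itch cytokine IL-31, had a log2 fold change of -0.84 ± 0.32, and -0.55 without TNTProx1 4 to 6.

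A list of CCR8 ligands, eotaxins and the eotaxin receptor Ccr3 was lower in 3 of 5 genes at a median of -0.15 (-0.02 without TNTProx1 4 to 6). Ccl1, a CCR8 ligand, had a log2 fold change of -1.29 ± 0.68 (SE) on 0 to 39 counts per library, and the eotaxin Ccl11 one of -0.16 ± 0.19 (-0.24 without TNTProx1 4 to 6). Ccl8, the more abundant CCR8 ligand, averaged 86.5 ± 34.4 CPM in TNTProx1 and 76.1 ± 23.6 CPM in TNTSham, with a value of 0.18 ± 0.26 that was -0.02 without those 3 libraries. Signalling and transcription genes were higher in 10 of 17 at a median of 0.04. Cish, a STAT5-induced inhibitor of cytokine signalling, averaged 8.88 ± 1.15 CPM in TNTProx1 and 13.4 ± 4.06 CPM in TNTSham (log2 fold change -0.59 ± 0.18; edgeR adjusted p = 0.181; DESeq2 adjusted p = 0.041). Myd88, the adaptor of the IL-33 receptor and of Toll-like receptors, had 0.41 ± 0.15, and 0.15 without TNTProx1 4 to 6. Stat6 itself averaged 123.1 ± 11.3 CPM in TNTProx1 and 123.3 ± 8.71 CPM in TNTSham, and its log2 fold change was -0.12 without TNTProx1 4 to 6.

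Genes that IL-4 and IL-13 induce split evenly, 6 of 12 higher, at a median of -0.06 (7 of 12 and 0.05 without TNTProx1 4 to 6). Tgm2, tissue transglutaminase, averaged 80.4 ± 14.8 CPM in TNTProx1 and 52.1 ± 7.29 CPM in TNTSham, and its log2 fold change was 0.63 ± 0.13 (SE), with an adjusted p of 0.0927 in edgeR and 0.00333 in DESeq2. Postn, the matrix protein periostin, had 0.28 ± 0.14. Fibroblasts and endothelial cells express both genes without IL-4 or IL-13. The summed fibroblast marker level was 27196 to 61432 CPM in TNTProx1 and 21413 to 33886 CPM in TNTSham, with 7 of 7 markers higher at a median of 0.29 and none at 0. That of blood endothelial markers was 591 to 794 CPM in TNTProx1 and 318 to 605 CPM in TNTSham, with 7 of 7 higher at a median of 0.64 and none at 0. All 7 reached an unadjusted edgeR p under 0.05, beside 8.33% of all genes higher at that level. The part of either marker list in the Tgm2 and Postn values was not tested. Arg1, a macrophage and keratinocyte enzyme, averaged 106 ± 72.0 CPM in TNTProx1 and 105 ± 51.0 CPM in TNTSham. Its log2 fold change of 0.01 ± 0.47 (SE) became -1.01 without TNTProx1 4 to 6 (edgeR adjusted p = 0.305). Retnla, an alternatively activated macrophage product, averaged 0.894 ± 0.953 CPM in TNTProx1 and 1.70 ± 1.37 CPM in TNTSham, a value of -0.92 ± 0.61 that was -0.48 without those 3 libraries.

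**Figure D4:**
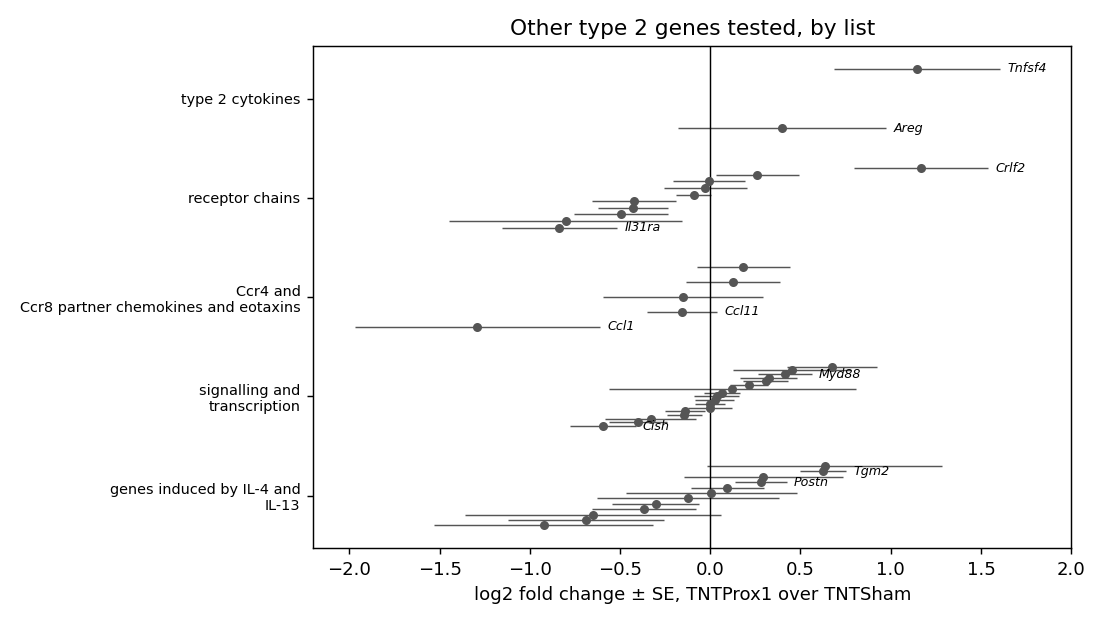
Each point is 1 of the 46 further type 2 genes tested, grouped by list (rows), with its edgeR log2 fold change, TNTProx1 over TNTSham, and SE (horizontal bars). The 2 genes of smallest p in each list are named. Every list but the 2 cytokine genes has members on both sides of 0.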

How the data were processed

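Total RNA of 13 tail samples was depleted of ribosomal RNA and made into stranded paired-end libraries, per the labels' protocols. The deposited table holds raw counts per gene. Per the submitters' processing notes, fastp 0.20.1, HISAT2 2.2.1, featureCounts of Subread 2.0.2 and build GRCm39 were used. Not given in the sources are the strand setting, the annotation release and the handling of reads with several alignments. Symbols and exon lengths came from GENCODE M21, of an older build, for 52081 of 55357 genes.

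Counts were scaled by TMM and filtered with filterByExpr in edgeR 4.0.16 under R 4.3.3, which left 22876 genes. The quasi-likelihood F test used the group as its one term, adjusted by Benjamini-Hochberg over all genes at 0.05. Each edgeR SE is the size of the log2 fold change over the square root of F. The 95% intervals were built from it, so both restate the fold change and its unadjusted p. Single genes were also tested by exact permutation with a pseudocount of 0.5. Alternatives were DESeq2 1.42.0, its size factors in edgeR, other filters, limma 3.58.1 voom with quality weights, robust fitting, a covariate for each library's share of reads in TEC genes (a class of provisional models), and fits without single libraries or without TNTProx1 4 to 6. The fitting scripts were tested on simulated data with known changes. There edgeR recovered 9 of 50 genes with a 1.5-fold change, 26 of 50 with a 2-fold change and 41 of 50 with a 4-fold change. DESeq2 recovered 17, 30 and 44 of 50, and limma voom with quality weights 9, 27 and 40 of 50. Among unchanged genes, edgeR called 9, DESeq2 43 and limma voom 8.

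The members and lists were chosen with earlier results of these data known. The text names all members, the 2 genes of smallest p in each of 5 further type 2 lists, genes with no counts, and for 4 members the 3 genes of nearest profile among those with a mean log2 CPM (prior count 2) above 0, of which 1 gene is not reported here. Cell type marker lists were set with them. Other names, such as Il4, Il5, Il13, Il25, Stat6, Ccl8, Arg1, Retnla, Epx, Prg2, Siglecf, Ccr3, Il5ra, Cx3cl1 and single markers, were chosen after their values were seen. Poisson intervals and count limits cover counting error only.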

Additional observations from a re-analysis of the deposited data

Results flagged for a closer look

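In 4 of the 20 combinations of a member with a group, 1 library lay far from the others by Dixon's criterion at its 95% level, and chance marks about 1 in 20. Il33 stood at 199.6 CPM in TNTSham 1, where the next TNTSham library had 75.3 CPM. Il13ra1 stood at 202.9 CPM in TNTSham 1, where the next had 153 CPM. The same library had the Xist level of 2095 CPM. Il1rl1 stood at 68.25 CPM in TNTProx1 1, where the next TNTProx1 library had 38.5 CPM. Ccl17 stood at 3.513 CPM in TNTProx1 4, where the next had 1.52 CPM.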

How the results depend on the processing

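No paired analysis was possible because the labels give the groups no shared replicate numbers. The edgeR count of 0 called genes became 619 with DESeq2, 573 with limma voom with quality weights, 545 with the TEC share as a covariate and 1 with no low-count filter, and ran from 0 to 589 when single libraries were left out (589 without TNTProx1 1 and 34 without TNTSham 5). Of the members, 1 was called with DESeq2, Ccl22, with a log2 fold change of -0.75. The members at an unadjusted p under 0.05 numbered 4 with limma voom and without TNTProx1 4 to 6, and 3 with the TEC share. They numbered 2 to 4 when single libraries were left out (4 without TNTProx1 6). Over all genes the share at that level was 12.2% with 13 libraries in edgeR and 21.4% without TNTProx1 4 to 6. It is not given for the other fits, so the member counts of those fits cannot be set against all genes. Of the further type 2 genes, 2 were called with DESeq2, 2 with limma voom, 2 with the TEC share and 0 to 1 when single libraries were left out (1 without TNTProx1 1).

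Ccl17, Ccl22, Ccr4, Ccr8, Il4ra and Gata3 kept their direction in every alternative that gave a value. Ccr8 had none at 1 CPM in 6 libraries, and its DESeq2 adjusted p was not given. Il33 was -0.14 with limma voom, -0.28 without TNTProx1 4 to 6 and -0.13 with the TEC share, and -0.00303 to 0.61 over fits without 1 library. Il13ra1 was -0.12, -0.21 and -0.0905 in the same 3 alternatives. Il1rl1 was -0.0027 with DESeq2, -0.0028 with its size factors, -0.0026 with no filter, and -0.05 as a difference in the exact permutation test at pseudocounts of 0.5 (-0.047) and 0.1 (-0.048). It ran from -0.25 to 0.12 over fits without 1 library, Il13ra1 from 0.03 to 0.22, and Tslp from -0.60 to 0.0385. The causes were not tested. Counts were lowest for Ccr8 among the members and for the type 2 cytokines.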
